A study of Mus musculus with 24 samples.

Results

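Quadriceps muscle of 6-week-old mice was compared between 3 arrays labelled mdx and 3 labelled BL10, chosen by their sample titles. They are 6 of the 24 arrays of the series, which holds both strains in groups of 3 at 5 days, 2 weeks, 3 weeks and 6 weeks. BL10 is the C57BL/10 control strain with an intact dystrophin gene, and mdx is a strain on that background with a nonsense mutation in Dmd, a model of Duchenne muscular dystrophy. No treatment is named for either group, and each array is labelled a biological replicate. The labels do not say which head of the quadriceps was taken, whether tendon was trimmed, or at what hour the mice were dissected. The stated purpose of the series was to profile mdx muscle over the stages of disease. Total RNA was hybridised to Affymetrix mouse expression arrays, which read each gene through 1 or more probe sets.

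Levels are given as log2(intensity + 16) after quantile normalisation, on which 4 is the floor and stands for a deposited intensity of 0 or less. Differences are labelled mdx minus labelled BL10 on that scale, with the standard error of a limma fit to all 24 arrays (n = 3 per group). The added constant makes differences of dim genes too small. A gene was called at a Benjamini-Hochberg adjusted p under 0.05 over 15000 genes. An exact permutation test of 3 arrays against 3 cannot give a p below 0.1, so a call depends on the error limma estimates by pooling genes and groups. P-values measure the spread between these arrays only.

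The quadriceps is joined to bone through tendon and aponeurosis. There tendon fibroblasts lay down collagen I fibrils, and small leucine-rich proteoglycans set the thickness of those fibrils. Muscle fibres carry slow or fast isoforms of myosin and troponin, and the slow fibres of a mouse quadriceps lie mainly in its deep part. A circadian clock runs in muscle as in other tissues: BMAL1 and CLOCK activate genes through E-boxes, the period and cryptochrome proteins and other repressors restrain them, and the output factors DBP, TEF and HLF act through D-boxes.

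Dmd went against the labels. Its brightest probe set lay at 9.83, 10.25 and 10.10 in labelled BL10 and at 9.84, 9.99 and 10.04 in labelled mdx. The groups overlapped, and the difference was -0.11 ± 0.47 (adjusted p 1 in limma). The other 3 Dmd probe sets differed by -0.05, 0.36 and 0.06, and overlapped as well. At 5 days the same probe set lay between 8.06 and 8.48 in arrays labelled mdx and between 9.87 and 10.02 in arrays labelled BL10. The groups at 6 weeks are therefore named by their labels throughout. Utrn, which encodes the dystrophin relative utrophin, differed by 0.06 ± 0.22. Of 16 measured genes of the dystrophin complex 0 were called by limma. At an unadjusted p under 0.05 in limma 1 was higher and 1 lower (1.51% and 2.01% of all genes). Of the 16, 3 lay higher and 2 lower without overlap (6.99% and 8.49% of all genes), and the median difference was 0.02. The fit to the 6 arrays alone called 1 of the 16 (0.693% of all genes). This was Aqp4, a water channel of the fibre membrane (0.75 ± 0.32 in the fit to all arrays).

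The 6 arrays were alike in the technical measures at hand. Median deposited intensity ran from 43.87 to 47.00 and values below 0 made up 4.11% to 5.82% of an array. The Gapdh control probe sets for the 3' and 5' ends differed by 0.25 to 0.41 in labelled BL10 and 0.17 to 0.54 in labelled mdx, and overlapped. All 6 read as male, with the Y-linked Eif2s3y at 9.43 to 9.89. Markers of quadriceps fibres were high in every array: Myh4, the myosin of the fastest fibres, lay between 13.75 and 13.79.

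In all 12 of 15000 genes were called (0.08%), 11 lower (0.0733%) and 1 higher (0.00667%) in the arrays labelled mdx. An unadjusted p under 0.05 was reached by 529 genes (3.53%), and the groups did not overlap for 15.5% of genes, 8.49% lower and 6.99% higher. The median of all differences was 0 and the median size of a difference 0.12. Fitted to the 6 arrays alone, limma called 104 genes (0.693%), 89 lower and 15 higher, and 9 of the 12 were among them. Six3, C1qtnf7 and Ciart were not, with adjusted p-values of 0.062, 0.117 and 0.0507. The count was 7 and 6 without replicates 1 and 2 labelled mdx at 6 weeks, which lowered it most. It was 22 without replicate 2 labelled mdx at 2 weeks and 21 without replicate 1 labelled mdx at 3 weeks.

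**Figure D1:**
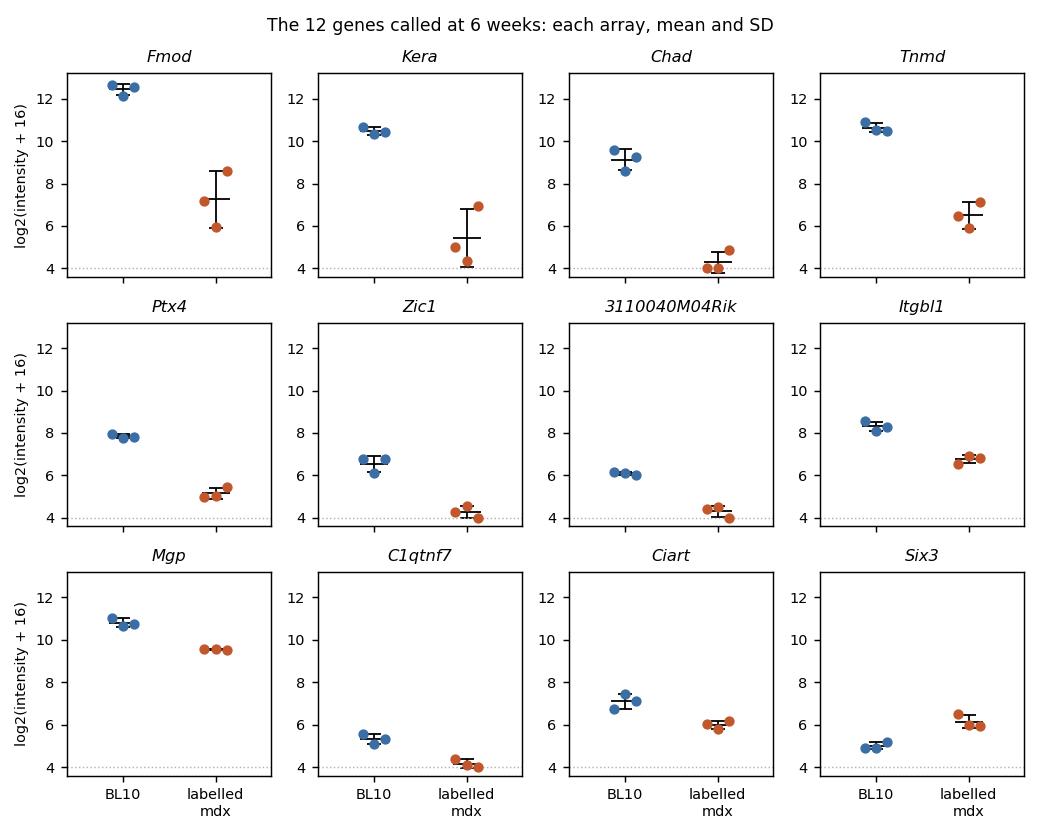
Each panel shows a called gene at 6 weeks in the 3 arrays of each label, with log2(intensity + 16) on the y axis, a horizontal bar at the mean, error bars of 1 SD and a dotted line at the floor of 4. The 11 genes lower in the arrays labelled mdx and Six3, which was higher, have no overlap between the labels, and Fmod, Kera and Tnmd vary more among the arrays labelled mdx than among those labelled BL10.

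The called genes with the largest differences were genes of tendon. Of 26 tendon and ligament markers, all measured, 6 were called lower and 0 higher, 21 lay without overlap below the arrays labelled BL10 (8.49% of all genes), and 16 were called lower in the fit to the 6 arrays alone (0.593% of all genes). Their median difference was -1.57, from -5.19 to 0.16. This list, like the others, was chosen with earlier results of these data known, so its counts are no test of tendon genes as a set. The mean level of the 26 genes was 8.81, 8.55 and 8.65 in the arrays labelled BL10 and 6.59, 6.43 and 6.81 in those labelled mdx. In bulk tissue fewer cells of a type and less RNA per cell cannot be told apart, and how much tendon each sample held was not measured on its own.

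Among the proteoglycans and secreted proteins of tendon, Fmod encodes fibromodulin, which binds collagen and controls fibril growth. It read 12.63, 12.15 and 12.57 in the arrays labelled BL10 and 7.20, 5.95 and 8.60 in those labelled mdx. The groups lay far apart, and it fell by 5.19 ± 0.81 (adjusted p 0.00634). All 6 of its probe sets were lower, with differences from -5.61 to -3.94. Kera, the related proteoglycan keratocan, read 10.66, 10.33 and 10.44 against 4.99, 4.36 and 6.96. No array overlapped, with replicate 3 labelled mdx the least low, and the difference was -5.04 ± 0.80 (adjusted p 0.00634). Chad, or chondroadherin, a leucine-rich protein that binds integrin, read 9.58, 8.59 and 9.23 against 4, 4 and 4.85. Replicates 1 and 2 labelled mdx were at the floor, so its fitted difference of -4.85 ± 0.88 (adjusted p 0.0258) depends on the added constant: it ran from -7.83 to -3.17 over the other settings tried.

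Tnmd encodes tenomodulin, a membrane protein of tendon cells that is among their most specific markers. Its levels were 10.89, 10.53 and 10.48 in labelled BL10 and 6.45, 5.90 and 7.14 in labelled mdx. Every array labelled mdx lay more than 3 below every array labelled BL10 of this age, and the difference was -4.13 ± 0.60 (adjusted p 0.00547). Ptx4, a long pentraxin, read 7.97, 7.78 and 7.80 against 4.97, 5.05 and 5.45 (difference -2.69 ± 0.51, adjusted p 0.0431). Its groups were tight and far apart, but its call was lost in 19 of 38 other settings, with adjusted p-values up to 0.212. Itgbl1, an integrin beta-like protein made of EGF-like repeats, read 8.54, 8.10 and 8.29 against 6.55, 6.93 and 6.80 (-1.55 ± 0.28, adjusted p 0.0232). Its adjusted p was 0.0586 to 0.159 without any 1 of the 6 arrays.

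Other tendon markers had large differences without a call over all arrays, and all of the following were called in the fit to the 6 arrays alone. Ecrg4, a secreted peptide precursor, differed by -4.23 (adjusted p 0.0821), and Comp, which links collagen fibrils in cartilage and tendon, by -3.72 (adjusted p 0.235). Angptl7 differed by -3.39 (adjusted p 0.103), Col11a1, a fibril-forming collagen, by -2.95 (adjusted p 0.641) and Prg4, the lubricant lubricin, by -2.90 (adjusted p 0.369). Tnc encodes tenascin-C, a matrix protein of tendon and of injured muscle. It read 8.56, 8.59 and 8.62 against 6.27, 5.37 and 5.56 (-2.86 ± 0.58, adjusted p 0.0705). None of these 6 genes overlapped between the labels. The early tendon regulator Scx, or scleraxis, lay lower by less: 6.48, 6.52 and 6.78 against 5.23, 6.31 and 5.46, a difference of -0.92 ± 0.33 (adjusted p 0.795).

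**Figure D2:**
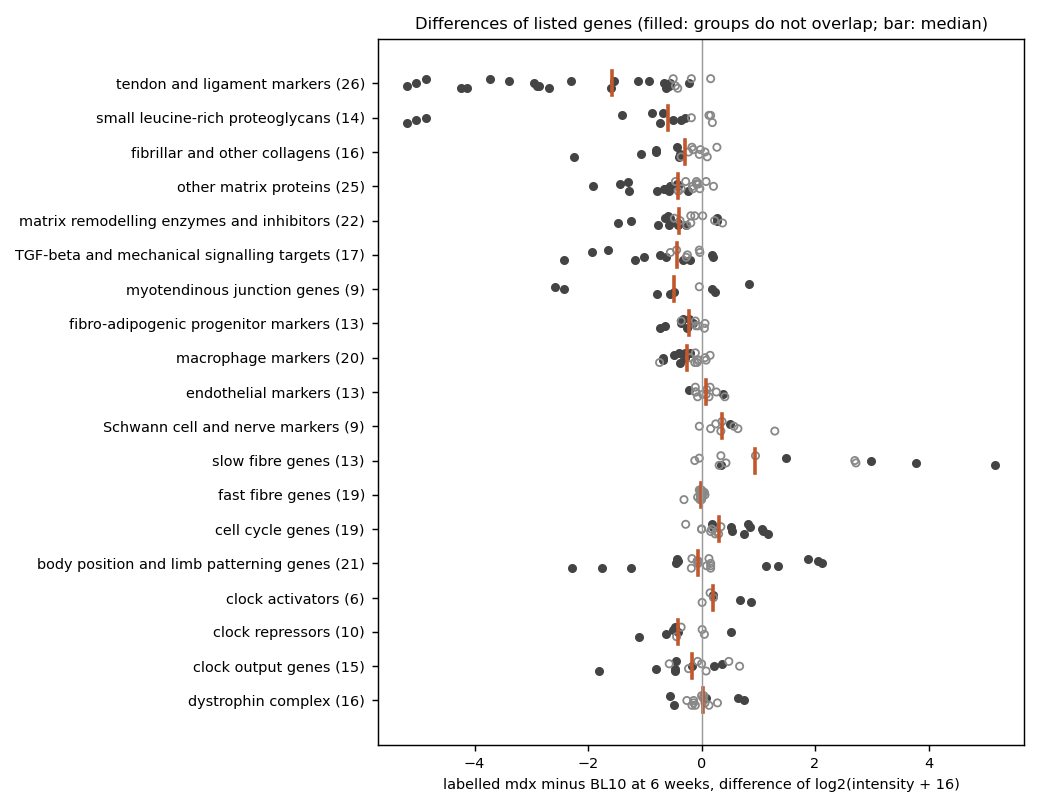
Each point is a tested gene of a list (number of genes in parentheses), the x axis is the labelled mdx minus BL10 difference at 6 weeks in log2(intensity + 16), filled points are genes whose groups do not overlap, and the vertical bar is the list's median. Tendon markers have a median of -1.57 and slow fibre genes of 0.95, while fast fibre genes all lie within -0.31 and 0.06.

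Matrix genes beyond tendon had smaller differences. The small leucine-rich proteoglycans share Fmod, Kera and Chad with the tendon list; besides these 3, 0 of the other 11 were called over all arrays. Over all 14 measured members 10 lay without overlap lower and 0 higher (8.49% and 6.99% of all genes), and the median was -0.59. Prelp, an anchor between basement membrane and matrix, read 9.74, 9.43 and 9.53 against 8.46, 8.06 and 7.97 (-1.41 ± 0.45, adjusted p 0.633). Bgn and Dcn, the biglycan and decorin common to most connective tissue, differed by -0.74 and -0.50. Lum, or lumican, differed by 0.16 and overlapped.

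The collagens held no called gene. Of 16 collagen genes 0 were called by limma, and 7 lay lower without overlap and 0 higher (8.49% and 6.99% of all genes). Of the same 16, 4 were lower at an unadjusted p under 0.05 (2.01% of all genes). With the 6 arrays alone 3 were called lower, and the median was -0.29. Col1a1, of the main collagen of tendon and scar, read 13.28, 13.15 and 12.91 against 12.57, 12.37 and 11.98 (-0.81 ± 0.35, adjusted p 1). Col3a1, typical of the connective tissue between fibres, differed by -0.04 ± 0.09 and overlapped. It lay between 13.35 and 13.66, near the top of the array's range, where a probe set responds less to a change. Col8a2, a short-chain collagen, had the largest difference of the list, -2.24 ± 0.61 (adjusted p 0.315). Col11a1, Col12a1 and Col22a1, which had larger differences, are not in this list but in those of tendon and of the myotendinous junction.

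Among 25 other matrix proteins 1 was called lower, 12 lay without overlap lower and 0 higher (8.49% and 6.99% of all genes), with a median of -0.41. The called gene was Mgp, matrix Gla protein, which inhibits calcification. It read 11.04, 10.64 and 10.76 against 9.55, 9.58 and 9.52, and its fall of 1.27 ± 0.19 (adjusted p 0.00547) passed the threshold in all 38 other settings. Its 3 arrays labelled mdx lay within 0.1 of each other, while Fmod, Kera and Tnmd varied by more than 1 among the same arrays. Thbs2, a thrombospondin of connective tissue, read 8.21, 8.09 and 7.94 against 6.29, 6.07 and 6.13 (-1.92 ± 0.39, adjusted p 0.0705). Fn1 (fibronectin) and Postn (periostin) differed by -0.56 and -0.08, neither called.

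Genes that remodel matrix or answer to tension had no member called. Of 22 remodelling enzymes and inhibitors 0 were called, 11 lay lower without overlap and 2 higher (8.49% and 6.99% of all genes), and the median was -0.39. Lox, the oxidase that cross-links collagen, read 10.10, 10.33 and 10.31 against 8.97, 8.72 and 8.61 (-1.48 ± 0.33, adjusted p 0.111). Of 17 targets of TGF-beta and of mechanical signalling 0 were called, 9 lay lower and 2 higher without overlap, and the median was -0.44. Ccn2, or CTGF, read 11.08, 10.23 and 9.95 against 8.61, 8.68 and 9.07 (-1.64 ± 0.37, adjusted p 0.113). The ligands Tgfb1 and Tgfb2 themselves differed by -0.03 and -0.04 and overlapped, while Tgfb3 lay lower without overlap, by -0.33 (adjusted p 1). In these 2 lists the unadjusted p was under 0.05 for 5 and 4 genes, all lower (2.01% of all genes). The 6 arrays alone called 4 and 5, all lower (0.593% of all genes).

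At the myotendinous junction, where fibre ends anchor to tendon, 0 of 9 measured genes were called. At an unadjusted p under 0.05 in limma 4 were lower and 1 higher (2.01% and 1.51% of all genes). Of the 9, 5 lay lower and 3 higher without overlap (8.49% and 6.99% of all genes), and the median was -0.48. Col22a1, a collagen confined to such tissue junctions, read 8.34, 8.83 and 8.89 against 6.75, 5.13 and 6.43 (-2.58 ± 0.66, adjusted p 0.238). Ankrd1, a strain-responsive protein of the sarcomere, read 7.16, 7.41 and 7.81 against 4.97, 4.87 and 5.26 (-2.43 ± 0.55, adjusted p 0.121). Both groups were apart for either gene, and the 6 arrays alone called both. Fhl2, a LIM protein of muscle, lay the other way, with a difference of 0.83 (adjusted p 1).

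Markers of the other connective tissue cells had medians nearer 0 than those of tendon. The 13 fibro-adipogenic progenitor markers had a median of -0.22 with 0 called by limma. Of these, 7 were lower without overlap (8.49% of all genes) and 1 was lower at an unadjusted p under 0.05 (2.01% of all genes). The 12 measured cartilage and bone markers had a median of 0.03, with 0 called and 1 lower at an unadjusted p under 0.05 (2.01%). Of the 12, 3 lay lower and 2 higher without overlap (8.49% and 6.99% of all genes).

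Slow fibre genes lay the other way, without a call. Of 13 measured genes 0 were called over all arrays, 6 were higher at an unadjusted p under 0.05 (1.51% of all genes), 5 lay higher without overlap (6.99%), and the median was 0.95. Myh7, the slow myosin heavy chain, read 7.53, 4.14 and 4 in the arrays labelled BL10 and 11.20, 11.83 and 8.14 in those labelled mdx. Replicate 1 labelled BL10 and replicate 3 labelled mdx lay within 1 of each other, and the difference was 5.17 ± 1.20 (adjusted p 0.13). Replicates 2 and 3 labelled BL10 lay at or near the floor, so the size of the Myh7 difference depends on the added constant. It ran from 3.85 to 7.42 over the other settings tried. Tnni1, slow troponin I, read 6.73, 4.90 and 4.71 against 9.90, 10.60 and 7.17 (3.78 ± 0.98, adjusted p 0.242), in the same order of arrays. Tnnt1 and Myl2, the slow troponin T and the slow regulatory light chain, differed by 2.72 and 2.70 but overlapped. The mean of the 13 genes was 9.26, 8.08 and 8.53 against 10.60, 10.91 and 9.22, so that replicate 3 labelled mdx fell just below replicate 1 labelled BL10.

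Sln encodes sarcolipin, an inhibitor of the calcium pump. It was the only slow fibre gene called with the 6 arrays alone (adjusted p 0.0398), and read 6.25, 6.96 and 6.93 against 8.50, 8.37 and 7.71. Of 19 fast fibre genes 0 were called by limma and 0 had an unadjusted p under 0.05, with a median of -0.01. Myh1, Myh2 and Myh4, the fast myosins, differed by 0.01, 0.06 and 0.01. They lie near the top of the array's range, between 12.81 and 13.79, where a probe set responds less to a change.

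Genes that record position along the body and limb were split. Of 21 measured, 1 was called lower and 1 higher, 6 lay lower and 5 higher without overlap (8.49% and 6.99% of all genes), and the median was -0.06. Zic1, a zinc finger factor, read 6.76, 6.12 and 6.77 against 4.25, 4.56 and 4. Its levels in the arrays labelled mdx came close to the floor, and it fell by 2.28 ± 0.34 (adjusted p 0.00547), with both probe sets lower. Six3, a homeobox gene best known from forebrain and eye, read 4.92, 4.89 and 5.19 against 6.51, 5.97 and 5.95. It was the only gene called higher (1.14 ± 0.18, adjusted p 0.00634), but its other 2 probe sets differed by 0.22 and 0.33 and overlapped. Six2, a relative of Six3 found in tendon and connective tissue, differed by -1.75 ± 0.48 (adjusted p 0.344), and En1, which marks the ventral limb, by -1.25.

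The HoxD cluster, whose genes are switched on in turn along the limb, had 5 members tested; Hoxd1, Hoxd3, Hoxd4 and Hoxd12 were not among the tested genes. Hoxd8 read 7.94, 8.33 and 7.90 in labelled BL10 and 9.93, 9.96 and 10.45 in labelled mdx (2.05 ± 0.43, adjusted p 0.0821). Hoxd9 read 5.42, 6.50 and 6.42 against 7.88, 8.15 and 8.67 (2.12 ± 0.59, adjusted p 0.352). Hoxd10 read 4.70, 4.64 and 4.99 against 5.99, 6.06 and 6.31 (1.34 ± 0.29, adjusted p 0.0938). These 3 neighbours did not overlap between the labels and all 3 were called in the fit to the 6 arrays alone. Hoxd11 and Hoxd13 differed by 0.28 and -0.15 and overlapped. Irx5, an Iroquois factor of limb patterning, read 5.03, 4.94 and 5.10 against 7.68, 7.31 and 5.72 (1.88 ± 0.44, adjusted p 0.13).

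Clock genes lay on both sides of 0. The promoters of 3 of them are shown for the sequence elements the clock acts through, from 250 bases before to 50 after the start site, as RefSeq gives them for GRCm38.p6. Ciart lies on the minus strand at chr3:95882179-95882478, Per3 on the minus strand at chr4:151044616-151044915, and Cry1 on the minus strand at chr10:85185005-85185304. Capitals mark the E-box CACGTG in Ciart and Cry1 and the D-box TTATGTAA in Per3, searched on both strands.
Ciart: E-box CACGTG
Per3: D-box TTATGTAA
Cry1: E-box CACGTG

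Ciart holds 3 E-boxes, whose first bases lie at -116, -58 and -44 from the start site, Cry1 holds 1 at -60, and Per3 holds 2 D-boxes at -205 and -158. Of 32851 RefSeq promoters of this length 7.15% hold CACGTG, 0.938% hold TTATGTAA and 16.3% hold AGGTCA, the element of the REV-ERB and ROR receptors. Promoters were matched for 8 clock repressors, 12 output genes and 6 activators. In that order the E-box is held by 4, 6 and 0 of them, the D-box by 1, 1 and 0, and AGGTCA by 2, 1 and 3. These counts are of genes with the element in any of their promoters, while the percentages are of single promoters, so the 2 are not alike. Dbp, which had the largest difference among the clock genes, and Nr1d1 hold none of these 3 elements in the window. A match describes the letters of the window and does not show that a factor binds there.

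Among 10 clock repressors 1 was called lower, 5 lay lower and 1 higher without overlap (8.49% and 6.99% of all genes), and the median was -0.42. Ciart, or CHRONO, which represses BMAL1 and CLOCK, read 6.75, 7.47 and 7.12 against 6.02, 5.81 and 6.17. Its groups did not overlap and it fell by 1.11 ± 0.21 (adjusted p 0.0431), but it missed the threshold in 17 of 38 other settings. Per3 read 7.70, 7.90 and 7.65 against 7.12, 7.10 and 7.13 (-0.63 ± 0.21, adjusted p 0.654). The cryptochromes parted: Cry1 lay at 7.81, 7.45 and 7.63 against 8.08, 8.02 and 8.31, a difference of 0.51, and Cry2 differed by -0.47. Nr1d1, which encodes REV-ERB alpha, a repressor of the BMAL1 gene, differed by -0.50. Per1 differed by 0.05 and overlapped.

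Of 6 activators 0 were called by limma, and 3 lay higher without overlap and 0 lower (6.99% and 8.49% of all genes). At an unadjusted p under 0.05 in limma 1 was higher (1.51% of all genes). Arntl, which encodes BMAL1, read 7.02, 7.11 and 7.55 against 7.91, 8.05 and 8.34 (0.87 ± 0.33, adjusted p 0.916), and Npas2, a stand-in for CLOCK, differed by 0.68. The other, dimmer probe set of Arntl differed by 0.09 and overlapped. Among 15 output genes 0 were called, 6 lay lower and 2 higher without overlap (8.49% and 6.99% of all genes), and the median was -0.16. Dbp had the largest difference of the list: it read 9.35, 9.84 and 9.32 against 7.71, 7.93 and 7.45 (-1.80 ± 0.49, adjusted p 0.313). The levels of each label were close together and the groups stood well apart, and the 6 arrays alone called Dbp (adjusted p 0.00222). The related factors Tef and Hlf each differed by -0.46. Without the hour of dissection, the time of day and the label cannot be told apart for these genes.

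**Figure D3:**
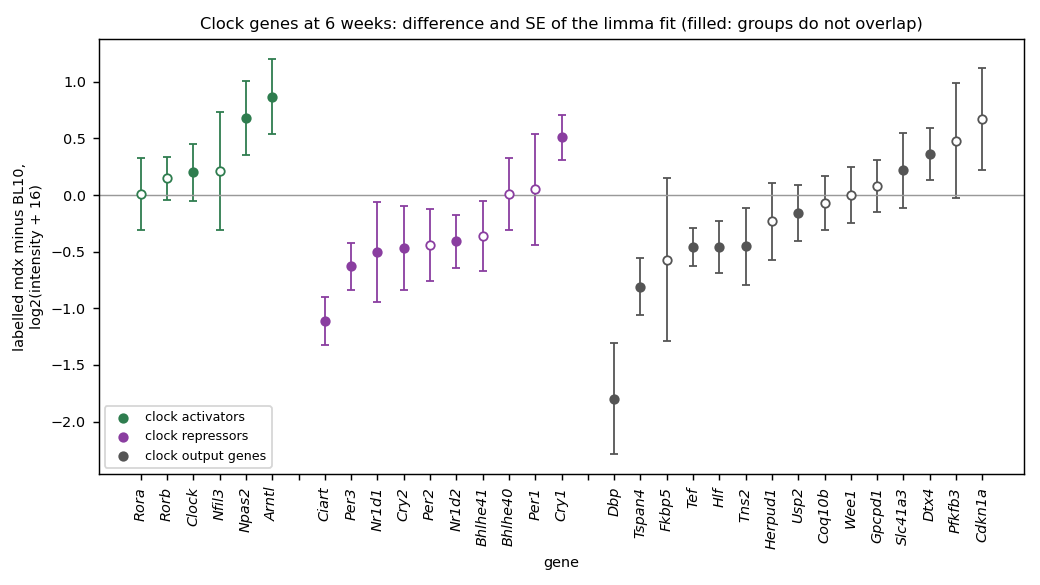
Points are the labelled mdx minus BL10 differences of 31 clock genes at 6 weeks in log2(intensity + 16), coloured by role, with error bars of 1 standard error from limma and filled points where the groups do not overlap. Arntl and Npas2 lie above 0, and Ciart, Per3 and Dbp below it, with Cry1 on the other side from most repressors.

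The 2 called genes in none of these lists were 3110040M04Rik and C1qtnf7. The first, which has only a clone name, read 6.15, 6.09 and 6.04 against 4.41, 4.51 and 4 (-1.79 ± 0.28, adjusted p 0.00634), and its difference ran from -3.87 to -0.78 with other added constants. C1qtnf7, a secreted protein of the C1q and TNF family, read 5.56, 5.10 and 5.33 against 4.40, 4.09 and 4 (-1.17 ± 0.20, adjusted p 0.0162). Both sat close to the floor in the arrays labelled mdx. The other probe set of C1qtnf7 differed by 0.07 and overlapped, so its call rests on 1 probe set.

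Set beside the 18 arrays of the other ages, the called genes fell into 3 patterns, of which none was tested. For Tnmd, Mgp, Zic1, Fmod, C1qtnf7 and Ptx4 the arrays labelled mdx at 6 weeks lay below all 18, and for Kera and Chad below 17 and 15 of them. The mean of the tendon markers was 7.07 to 8.91 at the other ages, so all 3 arrays labelled mdx at 6 weeks lay under that range and the 3 labelled BL10 lay within it. For 3110040M04Rik, Itgbl1 and Ciart the arrays labelled BL10 at 6 weeks lay above all 18 instead. For Six3 they lay below all 18. Hoxd8 in the arrays labelled mdx lay above all 18. The slow fibre genes Tnni1 and Tnnc1 were higher in all 18 arrays than in any labelled BL10 at 6 weeks, and Myh7 in 17.

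**Figure D4:**
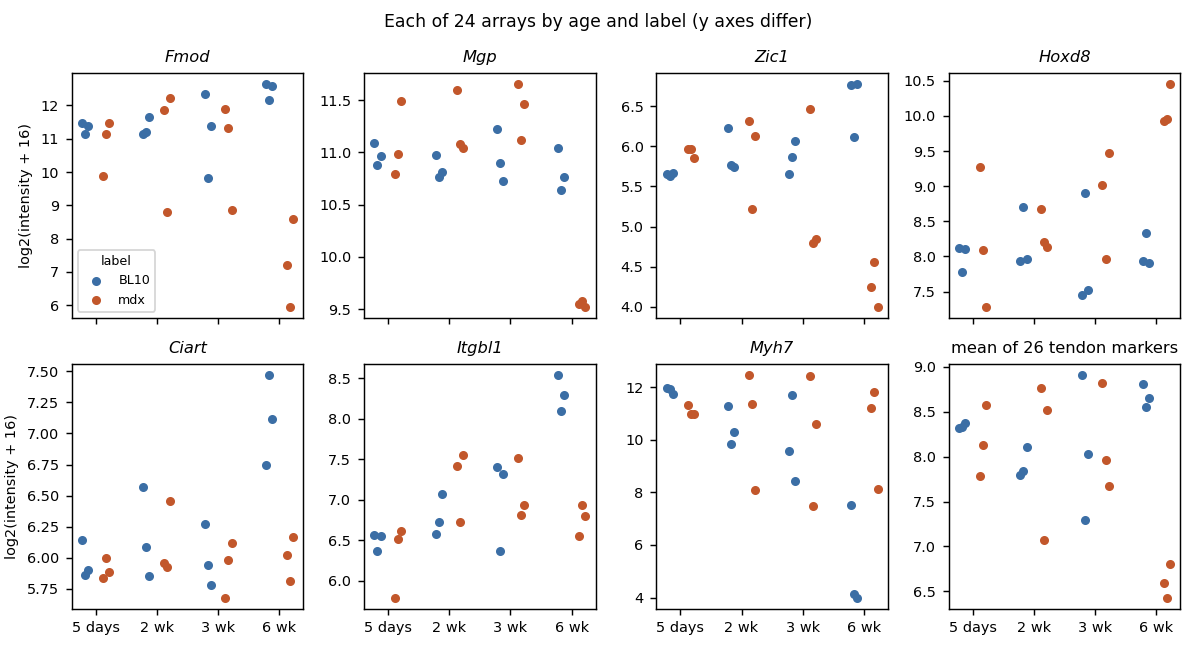
Each point is 1 of the 24 arrays, with age on the x axis, log2(intensity + 16) on the y axis (the axes differ between panels) and colour for the label. The arrays labelled mdx at 6 weeks are the lowest of all for Fmod, Mgp, Zic1 and the tendon marker mean and the highest for Hoxd8, while for Ciart and Itgbl1 the arrays labelled BL10 at 6 weeks are the highest.

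Injured mdx muscle is filled with macrophages and regenerating fibres, and these genes were examined for the same label at 6 weeks. Of 15 genes of injured dystrophic muscle 0 were called by limma. At an unadjusted p under 0.05 in limma 2 were lower and 0 higher (2.01% and 1.51% of all genes). The 2 were Tnc and Ankrd1, which the tendon and the junction lists also hold. The median of the 15 was -0.43, against 2.10 and 11 called higher at 3 weeks (8.11% of all genes called in either direction). Of 20 macrophage markers 0 were called, and 10 lay lower without overlap and 0 higher (8.49% and 6.99% of all genes). Their median was -0.25, against 1.20 and 14 called higher at 3 weeks. Lyz2, the macrophage lysozyme, read 10.28, 10.18 and 10.27 against 10.05, 9.85 and 9.66 (-0.39 ± 0.28, adjusted p 1). Myh3, the embryonic myosin of new fibres, read 6.15, 6.02 and 6.13 against 6.17, 7.18 and 5.71 and overlapped. The 15 interferon response genes had a median of -0.12, with 0 called, 0 at an unadjusted p under 0.05 and 0 without overlap. The 3-week arrays labelled mdx were not alike. Their macrophage marker means were 7.77, 8.92 and 9.02 in replicates 1 to 3, against 7.03 to 7.43 in labelled BL10. For the injured muscle genes the means were 8.49, 9.98 and 10.41, against 7.04 to 7.66, so replicate 1 was raised least.

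Whether the labels differed otherwise at 6 than at 3 weeks was tested as the difference of the 2 differences, from 4 separate groups of arrays. Limma called 157 genes (1.05%), 129 lower (0.86%) and 28 higher (0.187%), and 6 of the 12 genes called at 6 weeks were among them: Fmod, Mgp, Itgbl1, C1qtnf7, 3110040M04Rik and Six3. The test contains the 6-week difference by which those 12 were called, so their share in it is no separate support. Of the macrophage markers 6 of 20 were called lower in this test, of the injured muscle genes 6 of 15, of the tendon markers 4 of 26 (Fmod, Itgbl1, Prg4 and Tnc) and of the interferon genes 0 of 15. Mpeg1, a pore-forming protein of macrophages, had the difference of differences -4.95 (adjusted p 0.0124), made of 4.21 at 3 weeks and -0.74 at 6 weeks. Prg4 had -5.77 (adjusted p 0.0191), made of 2.87 and -2.90.

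That test rests on the 3-week arrays, of which replicate 2 labelled BL10 has Dmd at 8.02, in the range of arrays labelled mdx, and on the 3 labelled mdx at 6 weeks, with Dmd at the BL10 level. Replicate 3 labelled mdx at 2 weeks, which enters the fit only through the pooled error, also goes against its label (10.31). A further Dmd probe set read 8.03 and 7.70 in replicates 1 labelled BL10 at 3 and 2 weeks, within the range of arrays labelled mdx, while their brightest probe set read 8.88 and 9.18. Without BL10 replicate 1 at 3 weeks 144 genes were called, 113 of them among the 157. Without BL10 replicate 2 at 3 weeks and mdx replicate 3 at 2 weeks 361 genes were called, 142 of them among the 157; Fmod and Itgbl1 then missed the threshold (both adjusted p 0.0565). Without replicate 3 labelled BL10 at 3 weeks or replicate 3 labelled mdx at 6 weeks the count was 21. The Gapdh 3' minus 5' difference was 0.71, 0.42 and -0.20 in the arrays labelled mdx at 3 weeks and -0.15, -0.22 and -0.21 in those labelled BL10, and its part in the result was not tested.

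**Figure D5:**
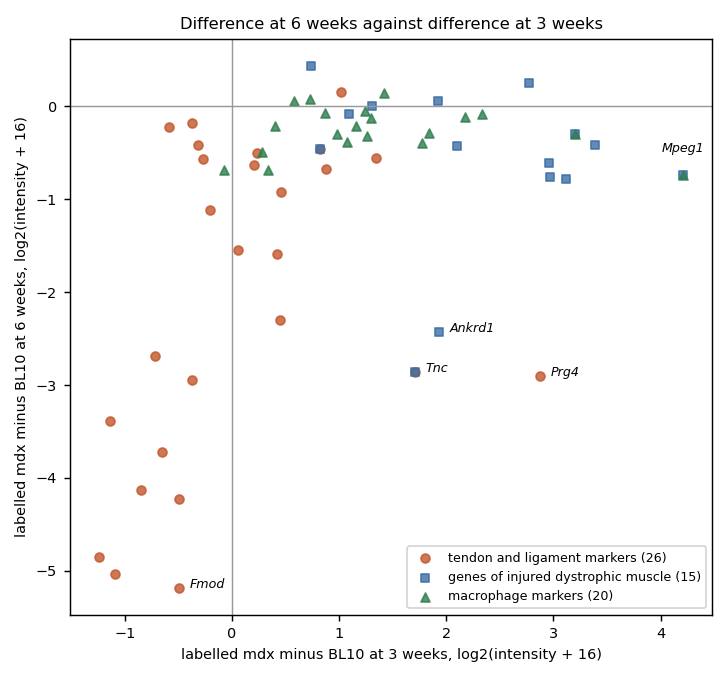
Each point is a gene of 3 lists, with the labelled mdx minus BL10 difference at 3 weeks on the x axis and at 6 weeks on the y axis, both in log2(intensity + 16). Macrophage and injured muscle genes spread to the right along a 6-week difference near 0, while Fmod and other tendon markers lie low; Prg4, Tnc and Ankrd1 are higher in the arrays labelled mdx at 3 weeks and lower at 6 weeks.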

How the data were processed

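The authors deposited 1 linear intensity per probe set and array, summarised with PLIER, per the submitters' processing notes; its version and background settings are not given in the sources used here. After 64 control probe sets were left out, 45037 remained. Arrays were quantile normalised, values below 0 set to 0, 16 added and log2 taken. Each symbol of the platform's table, checked against GRCm38.p6 names, was read through its probe set of highest mean and tested if above the 40th percentile of its array on at least 3 arrays, which left 15000 genes.

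A limma 3.58.1 model (R 4.3.3) with 8 group means was fitted to all 24 arrays, with an intensity trend, 16 residual and 5.15 prior degrees of freedom, two-sided tests and Benjamini-Hochberg adjustment. Precision is limited by the number of arrays, with a median standard error of 0.225 for the 6-week difference. Groups came from the sample titles. The scripts were tested on simulated data.

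The 40 gene lists, of 591 entries with 539 tested, and the rule for naming genes were chosen with earlier results of these data known. The rule takes Dmd, Utrn, sex-linked genes, every called gene, the 10 highest and 10 lowest differences without overlap, up to 6 members of largest difference and the first 3 of each list, and those genes called in the difference from 3 weeks. Other settings varied the scaling, added constant, filter, probe set, trend, weights, arrays, replicate block and threshold. The sample titles name no pairing of the labels by replicate number. Same-numbered arrays of the labels deviated together with r of 0.18, 0.05 and 0.15 over 15000 genes. For arrays of different number r ran from -0.17 to 0.03. Whether the numbers mark a shared factor was not tested, and the main fit leaves them out. Promoters came from RefSeq. Figures used matplotlib 3.10.9 under Python 3.11.15.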

Additional observations from a re-analysis of the deposited data

Results flagged for a closer look

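The rule for naming genes takes many of them by the size of their 6-week difference. The test against 3 weeks contains that difference, so the calls below are no separate support for it. Over all 15000 genes the test called 157 (1.05%). For 22 of the genes named by the rule the difference between the labels was called different at 6 weeks from that at 3 weeks (limma, adjusted p under 0.05, 6-week minus 3-week difference in log2(intensity + 16)). Among genes of tendon and matrix this value was -4.71 for Fmod (adjusted p 0.0493), -5.77 for Prg4 (0.0191), -4.57 for Tnc (0.0135), -1.60 for Itgbl1 (0.0491), -1.72 for Mgp (0.0124), -1.61 for Col8a1 (0.0358), -2.51 for Lox (0.0145), -2.41 for Thbs2 (0.0392) and -2.81 for Thbs1 (0.014). For Ccn4, a matricellular target of Wnt signalling, it was -2.98 (adjusted p 0.0191) and for Ankrd1 -4.36 (0.0135).

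Genes of macrophages and of injured muscle had values of -4.95 for Mpeg1 (adjusted p 0.0124), -2.16 for Lyz2 (0.0139), -2.13 for Cd68 (0.0439), -3.90 for Gpnmb (0.0403) and -3.73 for Timp1 (0.0205). The membrane repair genes Myof, Anxa1 and S100a10 had -1.88 (0.0124), -1.66 (0.045) and -1.08 (0.0239). The remaining 3 were 3110040M04Rik at -2.41 (adjusted p 0.0124), C1qtnf7 at -1.22 (0.0422) and Six3, the only positive value, at 1.43 (0.0124).

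The 3 mdx replicates at 6 weeks, with Dmd at the BL10 level, are 1 of the groups compared here. Without BL10 replicate 2 at 3 weeks and mdx replicate 3 at 2 weeks, whose Dmd also goes against the label, 19 of the 22 were still called; Fmod, Itgbl1 and Gpnmb were not (adjusted p 0.0565, 0.0565 and 0.0507). Without replicate 3 labelled BL10 at 3 weeks, or replicate 3 labelled mdx at 6 weeks, 8 of the 22 were called, the fewest of the 12 arrays of these ages left out in turn.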

How the results depend on the processing

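Each called gene kept its direction under every alternative run. Tnmd, Mgp and Zic1 passed the threshold in all of them, Fmod missed it in 1, Kera and 3110040M04Rik in 2, Six3 in 4, Itgbl1 and Chad in 6, C1qtnf7 in 8, Ciart in 17 and Ptx4 in 19, of 37 or 38. The count of 12 called genes at 6 weeks became 6 with a filter at the 60th percentile, 295 with array weights, 104 with only the arrays of this age, 22 without BL10 replicate 2 at 3 weeks and mdx replicate 3 at 2 weeks (the arrays of other ages whose Dmd goes against the label), 7 at an adjusted p under 0.01 and 20 at one under 0.1. With every probe set tested on its own, 25 probe sets were called. The count ranged from 6 to 22 when single arrays were left out (6 and 7 without replicates 2 and 1 labelled mdx at 6 weeks, 22 and 21 without mdx replicate 2 at 2 weeks and replicate 1 at 3 weeks). For the 6-week difference minus 3-week difference, the count of 157 became 289 with values as deposited (259 lower), 354 with median centring (323 lower, against 129 of 157), 761 with array weights, 102 with only the arrays of both ages, 361 without the same pair of arrays, 0 at an adjusted p under 0.01 and 403 at one under 0.1. It ranged from 21 to 337 without single arrays: 337 and 280 without mdx replicate 1 and BL10 replicate 2 at 3 weeks, 21 without BL10 replicate 3 at 3 weeks or mdx replicate 3 at 6 weeks, 66 and 78 without mdx replicates 2 and 3 at 3 weeks, 66, 54 and 79 without the BL10 replicates at 6 weeks, 86 and 68 without mdx replicates 1 and 2 at 6 weeks, and 94, 96 and 94 without the BL10 replicates at 5 days. With the replicate block the counts were 25 and 177, and 171 and 26 when only the arrays of the ages compared were in the fit. The sample titles do not say whether replicate numbers mark a shared factor. The cause of these changes was not tested, apart from the smaller number of genes or arrays that some settings leave. Dmd differed by 0.07 with the mean of its probe sets, and Utrn by -0.06 without mdx replicate 1 at 6 weeks (up to 0.13 without any other single array), neither called. The other scalings moved the median of all genes by -0.01 and -0.02. Genes near the floor of 4 have differences set by the added constant: Zic1 ran from -4.59 to -1.08 over the alternatives and C1qtnf7 from -3.44 to -0.42. Ptx4 ran from -3.40 to -1.73, Ciart from -1.33 to -0.74 and Six3 from 0.56 to 1.72.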

Other observations

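Genes of dividing cells tended higher in the arrays labelled mdx, without a call. Of 19 cell cycle genes 10 lay higher without overlap and 0 lower (6.99% and 8.49% of all genes), with a median of 0.30, while limma called 0 and 0 had an unadjusted p under 0.05. Mki67, the proliferation marker, read 5.98, 6.69 and 5.91 in labelled BL10 and 7.55, 7.27 and 6.97 in labelled mdx (1.07 ± 0.67, adjusted p 1). Of 14 genes of myogenic regulation and satellite cells 3 lay higher and 2 lower without overlap, with a median of 0.07. Myog, the myogenin that drives myoblast differentiation, read 6.16, 6.93 and 5.97 against 7.90, 8.02 and 7.87 (1.58 ± 0.38, adjusted p 0.18), with an adjusted p of 0.0212 in the fit to the 6 arrays alone. Its relatives Myod1 and Myf5 differed by 0.45 and -0.02, and Pax7, the satellite cell factor, by 0.11.

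A few arrays stood apart in other cell types. Schwann cell and nerve markers had a mean of 7.95 in replicate 1 labelled mdx and 6.66 to 7.06 in the other 5 arrays. In that array Mbp, the myelin basic protein, read 11.61, against 8.61 to 9.82 in the others. Ucp1, the uncoupling protein of brown fat, read 11.54 in replicate 1 labelled BL10 and 4.40 to 7.32 elsewhere. The same array had the immediate early gene Fos at 10.43 and the heat shock gene Hspa1a at 9.60, against 7.31 to 9.25 and 6.56 to 7.61 in the others.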
